A study of Mus musculus with 9 samples.

Results

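Havcr1 encodes kidney injury molecule 1 (KIM-1, also called TIM-1), and it is 1 of the 16939 genes listed in both deposited tables of UMI counts (a UMI, or unique molecular identifier, stands for 1 captured transcript). Its level, the share of nuclei that carry it and the genes that go with it were read in 27738 kidney nuclei from 9 male mice aged 11 to 19 weeks. The day 28 group (n = 3) and the day 7 group (n = 2) carried the strain Krt20T2A-CE; INTACTnuGFP/+, in which tamoxifen (0.05 mg/g) lets cells that express the keratin gene Krt20 turn on a heritable nuclear GFP. Both of these groups had ischemia-reperfusion injury (IRI) from an 18 min clamp on the vessels of both kidneys, and their sorted GFP nuclei are therefore those of Krt20-traced cells and not of the whole injured kidney. The control group (n = 4) held 3 sham-operated mice and, as control 1, a mouse with no surgery, of the strain Six2TGC; Rosa26rtTA; pTRE-H2BeGFP, in which doxycycline in the food (625 mg/kg) labels nuclei of the nephron lineage. Every nucleus was sorted for GFP from flash-frozen tissue. Injury, reporter strain and sort changed together between IRI and control and cannot be told apart there, whereas day 28 and day 7 shared strain and sort.

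KIM-1 is a cell surface glycoprotein with an immunoglobulin variable domain and a mucin domain. It binds phosphatidylserine exposed on dying cells and lets proximal tubule cells engulf them, and its outer part is cut off by metalloproteinases and appears in urine, where it serves as a marker of tubular injury. In the healthy kidney the gene is nearly silent, and the proximal tubule switches it on after ischemic or toxic damage. RNA in nuclei was counted here, and neither the protein nor its shed part was measured.

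The libraries held 1833617 to 14641038 UMIs, with a median of 668 to 4174 UMIs per nucleus. The shallowest library was control 4. The labels do not state the chemistry of each library, so barcode sets were inferred here from the starts of the cell barcodes. By these starts control 1 to 4 and day 28 mouse 1 were assigned to the v2 set and the other 4 libraries to the v3 set. At most 26 barcodes were shared by any pair of libraries. Clusters were made without Havcr1 and named from marker genes that do not include it, so no class of nuclei rests on the gene. Proximal tubule-like (PT-like) nuclei made up 72.0% to 84.2% of the day 28 libraries, 81.1% and 83.5% of the day 7 libraries and 66.7% to 90.3% of the controls. Serum creatinine 48 h after the clamp, given in the labels, was 0.488, 0.208 and 0.228 mg/dL in day 28 mice 1 to 3 and 0.255 and 0.133 mg/dL in day 7 mice 1 and 2, and with these 5 mice no correlation with Havcr1 is given.

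In GENCODE M21 (GRCm38, the mm10 assembly) Havcr1 (ENSMUSG00000040405.13) is a protein-coding gene on the plus strand at chr11:46735080-46779578, and no annotated gene overlaps it. It lies in a group of TIM genes, with Timd2 on the opposite strand at chr11:46668960-46707061, Havcr2 (TIM-3) at chr11:46454935-46481255 and Timd4 (TIM-4) at chr11:46810800-46844332. Timd2 is the near copy that could share reads with Havcr1. Of the 2306 different 25-base words in Havcr1 transcripts, 168 also occur in Timd2 transcripts and 0 occur in those of Havcr2 or Timd4. On the transcript ENSMUST00000081819.10, which has 8 exons and 2030 bases, 335 bases lie in such shared stretches, and 57 of the 1068 bases of the last exon do. Where the reads of these nuclei lay on the gene was not examined. The longest shared stretch, of 115 bases in exons 1 to 3, is only partly coding. A read fits either gene only where it lies wholly within a shared stretch, and read lengths were not examined. The shared stretches that are wholly coding, of 26, 29 and 53 bases, are printed. All are from the plus strand of GRCm38, 5′ to 3′, in lower case throughout, the first from exon 3 at chr11:46752341-46752366 and the others from exon 4 at chr11:46756164-46756192 and chr11:46756194-46756246.
Havcr1 exon 3 shared with Timd2: gggtcaccctgtcacacttccatgta
Havcr1 exon 4 shared with Timd2, first stretch: acaaggcccacagctacaggaagacccac
Havcr1 exon 4 shared with Timd2, second stretch: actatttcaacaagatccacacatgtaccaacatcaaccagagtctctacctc

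Timd2 was set beside Havcr1 for that reason. Over all nuclei Timd2 had 73.9, 73.9 and 53.0 UMIs per 1000000 UMIs (CPM) in day 28 mice 1 to 3, 134 and 148 CPM in day 7 mice 1 and 2, and 77.4, 75.3, 99.9 and 68.2 CPM in controls 1 to 4. Havcr1 in the same nuclei had 288, 301 and 189.5 CPM at day 28, 1018 and 869.7 CPM at day 7, and 7.26, 6.42, 1.66 and 4.91 CPM in the controls. Controls thus held more Timd2 than Havcr1, and the Timd2 values of day 28 and control overlapped where those of Havcr1 did not. At day 7 both genes lay above every day 28 and control library. In PT-like sums Timd2 had a log2 difference of -0.50 (SE 0.23, adjusted p = 0.0964 by edgeR) at day 28 against control and of 0.50 (SE 0.25, adjusted p = 0.119) at day 7 against control, and of -0.997 (SE 0.27, adjusted p = 0.0502) at day 28 against day 7. Havcr2, a receptor of immune cells, was at 1.48 CPM or less in every library, and Timd4, a receptor of macrophages, was listed in the IRI table alone, with 6 UMIs, all in day 7 mouse 2.

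The first comparison asks how far Havcr1 RNA stood above control after injury and what remained of it 3 weeks later. In PT-like nuclei it had 357, 326 and 213 CPM in day 28 mice 1 to 3, 1103 and 935 CPM in day 7 mice 1 and 2, and 8.37, 6.48, 1.87 and 5.11 CPM in controls 1 to 4. The 3 groups did not overlap, and the mouse without surgery had the highest value of the controls. The means were 298 ± 75.5 CPM at day 28 (SD, n = 3), 1019 ± 119 CPM at day 7 (SD, n = 2) and 5.46 ± 2.74 CPM in controls (SD, n = 4), the last resting on 41, 28, 16 and 8 UMIs.

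Against control, Havcr1 rose at day 28 by 5.55 on the log2 scale (SE 0.39, 46.9-fold, adjusted p = 8.62e-07, edgeR's quasi-likelihood test with Benjamini-Hochberg adjustment over 14193 genes). At day 7 it rose by 7.35 (SE 0.42, 163-fold, adjusted p = 2.74e-07). It ranked 126 at day 28 and 21 at day 7 among the 14193 genes ordered by log2 change, with rank 1 the largest rise. Calls were common in these comparisons: at day 28 against control 24.1% of genes were higher and 21.2% lower, and at day 7 against control 26.3% were higher and 24.8% lower. Within the v2 barcodes, day 28 mouse 1 against the 4 controls gave 5.76 (adjusted p = 1.82e-05 by edgeR, the lone mouse assumed to vary like the controls), and no day 7 library had v2 barcodes. The PT-like class did not hold the same clusters in each group: cluster 0, 1, 3, 6 and 7 nuclei prevailed in controls, clusters 2, 4, 8 and 15 at day 7 and clusters 5, 9, 11 and 12 at day 28. Of the latter, cluster 11 came mostly from day 28 mouse 1 and clusters 5, 9 and 12 mostly from day 28 mouse 2.

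Between the times Havcr1 fell by 1.80 on the log2 scale at day 28 against day 7 (SE 0.37, adjusted p = 0.0147 by edgeR), to 0.288 of the day 7 level, with rank 189 among genes ordered from the largest fall. This call is less common, since 1.38% of the genes were lower at day 28 and 4.35% were higher. Within v3 barcodes alone, day 28 mice 2 and 3 against both day 7 mice, the difference was -1.84 (adjusted p = 0.00337). The call rested on both day 7 mice, since the difference was -1.62 (adjusted p = 0.113) without day 7 mouse 1 and -1.96 (adjusted p = 0.0779) without day 7 mouse 2.

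**Figure D1:**
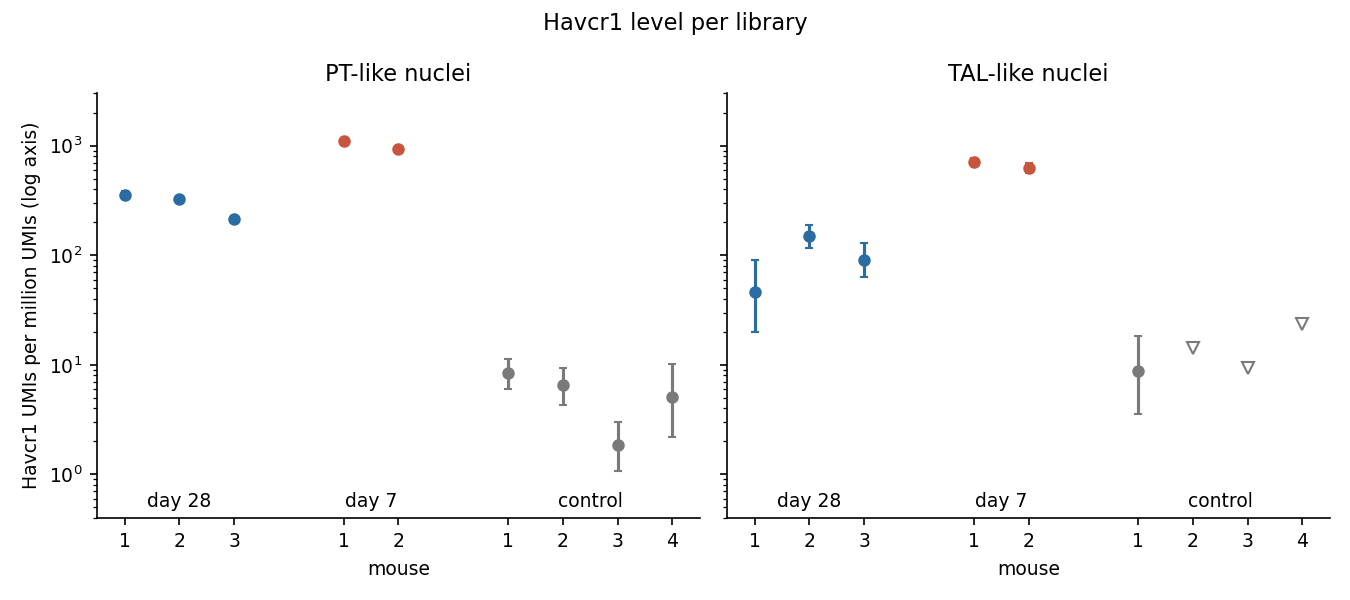
Havcr1 UMIs per 1000000 UMIs (log axis) in each mouse, for PT-like nuclei on the left and thick ascending limb-like (TAL-like) nuclei on the right. Bars are exact Poisson 95% intervals, which cover counting error only, and open triangles mark libraries with 0 Havcr1 UMIs at the level that 3 UMIs would give; PT-like values of day 28 (213 to 357), day 7 (935 and 1103) and control (1.87 to 8.37) do not overlap.

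Cd44 was the injury marker that fell with Havcr1, and Vcam1 lay the other way. In the same PT-like sums, scaled by the library factors of the edgeR fit, Vcam1, an adhesion molecule of tubule cells that fail to recover, had 713, 386 and 616 CPM at day 28, 254 and 213 CPM at day 7 and 2.51 to 10.7 CPM in the 4 control mice. All day 28 values of Vcam1 lay above both day 7 values, a log2 difference of 1.29 that missed the threshold (SE 0.40, adjusted p = 0.0876). Cd44, a hyaluronan receptor, had 203, 203 and 304 CPM at day 28 against 589 and 555 CPM at day 7 and fell by 1.27 (SE 0.28, adjusted p = 0.0195). Krt20, the gene that drives the reporter, differed by -0.15 (SE 0.57, adjusted p = 0.909), Spp1, which encodes osteopontin, by -0.19 (SE 0.30, adjusted p = 0.764), and the repair transcription factor gene Sox9 by 0.49 (SE 0.32, adjusted p = 0.399). Lcn2, another urinary injury marker, was low everywhere, with 1.31 to 1.69 CPM at day 28, 2.80 and 3.76 CPM at day 7 and 0.224 to 0.631 CPM in controls. Of 23 injury markers tested besides Havcr1, Cd44 was the member that fell between the times and 0 rose. Of 19 genes of the failed-repair proximal tubule state, Tgfb2 and Ccl2 rose and Ccbe1 fell, with a median of -0.07 against -0.04 over all genes tested. Of 10 cell cycle genes Anln, Cenpf, Top2a and Bub1 fell and 0 rose.

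The share of nuclei with Havcr1 was compared after each nucleus had been thinned at random to 1000 UMIs, because a deeper nucleus has more chances of a UMI. Of PT-like nuclei, 21.0%, 18.3% and 12.6% kept a Havcr1 UMI in day 28 mice 1 to 3, 52.9% and 49.6% in day 7 mice 1 and 2, and 0.552%, 0.692%, 0.184% and 0.325% in controls 1 to 4. Again the groups did not overlap. Thinning left out 310, 42 and 6 PT-like nuclei at day 28, 466 and 446 at day 7 and 218, 168, 311 and 1777 in the controls, the last being most of control 4. Without thinning the shares were 23.7%, 35.4% and 31.3% at day 28, 70.9% and 64.9% at day 7 and 0.267% to 0.961% in controls. The thinned share was 30.4 percentage points higher in IRI mice than in controls (30.9% ± 18.9, n = 5, and 0.438% ± 0.227, n = 4, SD; two-sided exact permutation test over mice, p = 0.0159). That call was lost when any 1 of the 4 controls was left out, with differences of 30.4 to 30.5 points and an exact permutation p of 0.0536. At day 28 it averaged 17.3% ± 4.26 (SD, n = 3), which was 34.0 points below the 51.3% ± 2.34 (SD, n = 2) of day 7, and the exact permutation p of 0.1 is the smallest that 3 mice against 2 allow.

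The number of Havcr1 UMIs per nucleus was read as well. Thinned nuclei with 3 or more Havcr1 UMIs made up 4.07%, 2.14% and 1.72% of PT-like nuclei in day 28 mice 1 to 3, 13.3% and 9.81% in day 7 mice 1 and 2, and 0% in every control. This share is over all PT-like nuclei and rises with the share of positive ones. It does not show more UMIs in each positive nucleus. The variance of the thinned count over its mean, which is 1 for counts scattered at random, was 2.25, 1.82 and 1.79 at day 28 and 1.81 and 1.60 at day 7, so the times overlapped on this measure. The highest count in a single unthinned nucleus was 9, 24 and 29 UMIs at day 28, 60 and 30 at day 7 and 2 to 8 in the controls.

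**Figure D2:**
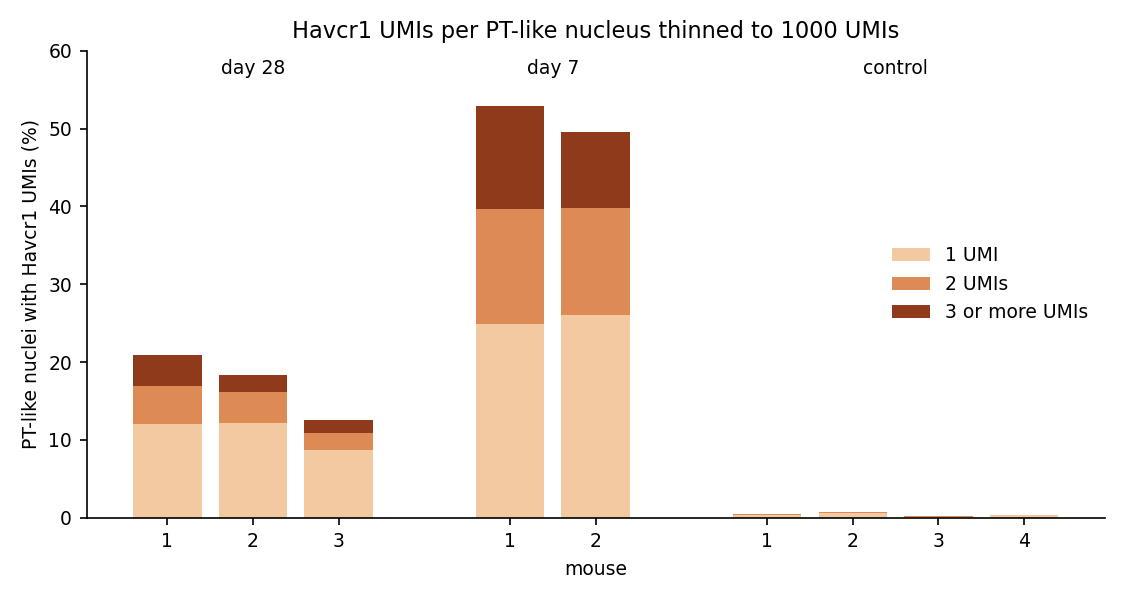
Share of PT-like nuclei (%) of each mouse that hold 1, 2 or 3 and more Havcr1 UMIs after thinning to 1000 UMIs, stacked. The totals are 12.6% to 21.0% in the 3 day 28 mice, 49.6% and 52.9% in the 2 day 7 mice and under 1% in the 4 controls.

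Havcr1 differed between states of the proximal tubule. In the clusters that scored higher for markers of injured than of uninjured proximal tubule, it had 468, 340 and 240 CPM in day 28 mice 1 to 3 and 1165 and 973 CPM in day 7 mice 1 and 2. In the PT-like clusters that scored higher for uninjured markers it had 28.5, 13.3 and 5.44 CPM at day 28, 51.9 and 77.2 CPM at day 7 and 7.39, 6.53, 1.87 and 4.51 CPM in controls. The uninjured-scored nuclei of IRI kidneys thus lay well below the injured-scored nuclei of the same mouse. At day 28 they overlapped with the controls in mouse 3 alone, and mice 1 and 2 lay above every control. Endothelium-like cluster 33 of the IRI mice is of a cell type not known to express the gene. It was at 27.1 CPM at day 28, from 4 UMIs (exact Poisson 95% interval 7.38 to 69.3). At day 7 it was at 87.0 CPM, from 9 UMIs (39.8 to 165). Whether the uninjured-scored nuclei express the gene after injury was not tested, and their level is not read as expression. Injured-scored clusters held 77.3%, 95.3% and 88.6% of PT-like nuclei at day 28, 94.2% and 95.5% at day 7 and 0.170% to 0.731% in controls.

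The lower level at day 28 was seen within clusters as well as between them. Of 13 PT-like clusters with at least 20 nuclei at both times, 13 were lower at day 28, and in 12 the exact Poisson 95% intervals of the summed counts, which cover counting error only, did not overlap. In these PT-like clusters the level at day 28 was 0.0830 to 0.632 of that at day 7, with a median ratio of 0.284. Clusters 13, 25 and 34 of them scored higher for uninjured markers. Every cluster outside the PT-like class with at least 20 nuclei at both times was lower at day 28 too. Stroma-like cluster 18 had 133 CPM at day 28 and 554 CPM at day 7, and leukocyte-like cluster 32 had 59.7 and 431 CPM. The fall was thus not particular to PT-like clusters. The highest level at day 7 was that of cluster 8, led by Kcnip4, Cd44 and Dock10, with 597 CPM at day 28 and 1540 CPM at day 7. Cluster 4, led by Cdh13, Cd44 and Hs3st5, had the highest level at day 28, 850 CPM from 24 nuclei, and 1409 CPM at day 7. Cluster 5, led by Gm17268 and Ptchd4, had 376 CPM at day 28 and 1324 CPM at day 7.

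Cluster 11, led by Gm17268 and the chemokine and adhesion genes Ccl2, Vcam1, Cxcl2 and Cxcl1, had 530 CPM at day 28, from 1016 nuclei, and 839 CPM at day 7, from 32 nuclei (exact Poisson 95% interval 607 to 1130). Most of its day 28 nuclei came from day 28 mouse 1, so its size is not read as a trait of day 28. Its Havcr1 level ran from 430 to 610 CPM over the 3 day 28 mice. The smallest ratio among the PT-like clusters was that of cluster 22, with 93.2 CPM at day 28, from 20 nuclei, and 1123 CPM at day 7. Its leading genes are those of dividing cells (Diaph3, Top2a, Mki67). Cluster 25, led by Hnf4aos and the transporter gene Slco1a1, was low at both times, with 6.31 CPM at day 28 and 49.6 CPM at day 7. Weighting the clusters of a mouse equally gave 326, 298 and 210 CPM for day 28 mice 1 to 3 and 856 and 728 CPM for day 7 mice 1 and 2 over the 8 to 10 clusters that each mouse filled, and the times did not overlap on this measure either. The clusters averaged were not the same in each mouse, so this measure does not hold the make-up of clusters fixed.

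**Figure D3:**
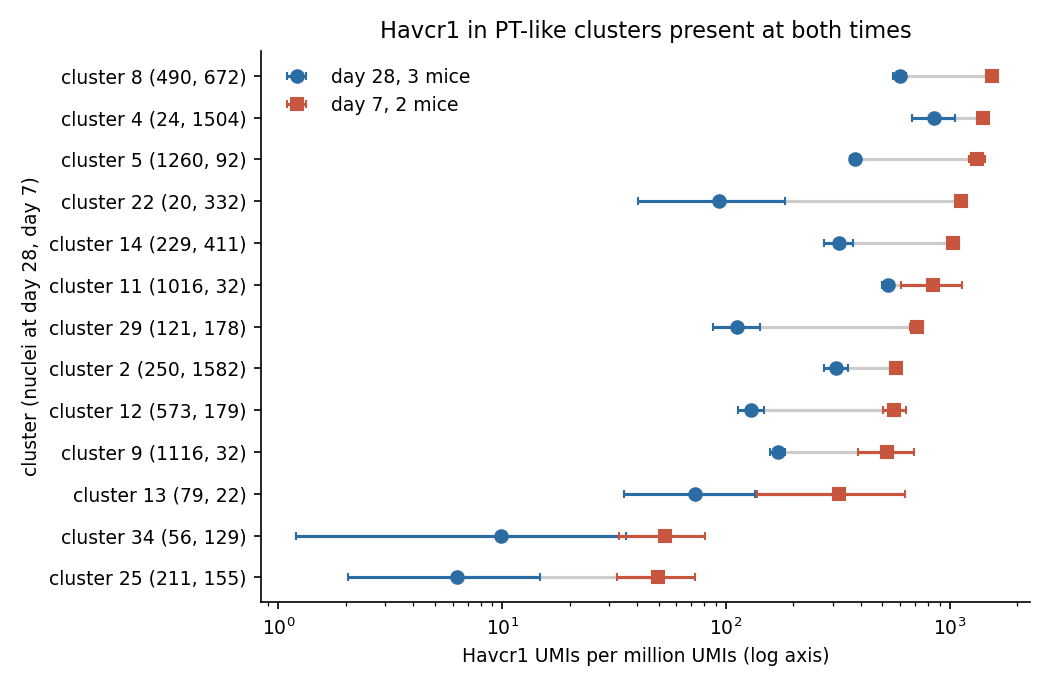
Havcr1 UMIs per 1000000 UMIs (log axis) in the 13 PT-like clusters with 20 or more nuclei at both times, summed over the 3 day 28 mice (circles) and the 2 day 7 mice (squares), with exact Poisson 95% intervals. The day 28 value is the lower in each cluster, from 6.31 CPM in cluster 25 to 850 CPM in cluster 4.

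In controls 1 to 3 cluster 17 held more of the few Havcr1 UMIs than any other PT-like cluster, and in control 4 cluster 1 held as many. Cluster 17, with AC117197.3, Slc5a12 and the interferon-induced chemokine gene Cxcl10 among its leading genes, held 24 of 41, 14 of 28, 12 of 16 and 3 of 8 PT-like Havcr1 UMIs of controls 1 to 4. Its level was 58.8, 66.9, 37.5 and 115 CPM in these mice, against 1.87 to 7.39 CPM over all uninjured-scored nuclei of the controls, cluster 17 included. Cluster 13 had 12.2, 20.8, 3.83 and 5.64 CPM in controls 1 to 4. With the controls summed, the injured proximal tubule markers of cluster 17 stood at 326% of their level in control PT-like nuclei. Injured-scored nuclei numbered 11, 16, 7 and 12 in controls 1 to 4 and held 5, 0, 0 and 1 Havcr1 UMIs. That is 168 CPM in control 1, 87.9 CPM in control 4 and 0 in controls 2 and 3. Clusters 6 and 7 together, with 1356 and 1215 control nuclei, had 0 Havcr1 UMIs. In cluster 17 the UMIs of control 1 came from 9 of 218 nuclei and those of control 2 from 7 of 113.

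Nuclei were also sorted by segment markers of the proximal tubule, those of the early and middle part (S1-S2) and those of the straight end part (S3). In controls 1 to 4, 68.8%, 68.9%, 72.9% and 70.1% of thinned PT-like nuclei had UMIs of both lists, so the lists did not part the segments well. Both lists also hold genes that were lower in Havcr1-positive nuclei, such as Slc34a1 (S1-S2) and Slc22a30 (S3). The shares below are therefore not read as a difference between segments. Thinned nuclei with UMIs of neither list had the highest Havcr1 shares, 31.7%, 23.8% and 15.7% in day 28 mice 1 to 3 and 63.4% and 59.1% in day 7 mice 1 and 2. Nuclei with S3 markers alone had shares of 19.8%, 17.7% and 14.5% at day 28 and 53.6% and 48.2% at day 7, and those with S1-S2 markers alone had 19.3%, 10.8% and 9.80% at day 28 and 43.2% and 43.6% at day 7. The S3 share was the higher in each of the 5 mice, but the exact 95% intervals of these shares were apart in day 28 mouse 2 alone. Nuclei with markers of both lists were lowest, at 4.69%, 7.63% and 5.93% at day 28 and 23.8% and 27.2% at day 7. In controls S3 markers alone were found in 29 to 72 nuclei per mouse and 0 to 3 of these were positive.

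Havcr1 was not confined to PT-like nuclei in the IRI libraries. At day 28 the mean over 3 mice was 298 ± 75.5 CPM in PT-like nuclei, 122 ± 39.9 in stroma-like, 106 ± 42.5 in endothelium-like, 99.5 ± 82.8 in distal-like, 95.7 ± 51.8 in TAL-like, 94.4 ± 71.6 in intercalated-like, 75.9 ± 131 in podocyte-like, 38.9 ± 46.3 in leukocyte-like and 21.6 ± 37.3 CPM in thin limb-like nuclei (SD). At day 7 the mean over 2 mice was 1019 ± 119 CPM in PT-like nuclei, 703 ± 55.4 in endothelium-like, 684 ± 141 in intercalated-like, 670 ± 65.2 in TAL-like, 542 ± 145 in stroma-like, 480 ± 81.9 in distal-like, 447 ± 228 in leukocyte-like, 348 ± 133 in podocyte-like and 330 ± 71.2 CPM in thin limb-like nuclei (SD). PT-like nuclei had the highest level in each of the 5 IRI mice, and below them each class differed from the next in its order by less than the larger SD of the pair. In controls no class other than PT-like summed to more than 7 Havcr1 UMIs.

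Markers of proximal tubule were found in the same nuclei. Levels here are from UMIs summed over the mice of each time, unlike the means over mice above, so the order of classes can differ. In TAL-like nuclei Havcr1 stood at 37.7% of its PT-like level at day 28 and 65.1% at day 7, while 18 proximal tubule markers summed to 39.0% and 55.6% and 12 markers of injured proximal tubule to 43.9% and 72.9% of theirs. Endothelium-like nuclei, which are not known to express Havcr1, had 31.8% at day 28 and 68.8% at day 7, with 50.8% and 70.6% of the proximal tubule marker level. They fell into a pair of clusters. Cluster 33 had 27.1 CPM of Havcr1 at day 28 and 87.0 CPM at day 7 and 6.81% and 12.5% of the PT-like level of proximal tubule markers. Cluster 23 had 165 and 808 CPM and 97.6% and 79.1% of that marker level. Havcr1 was thus high in the endothelium-like cluster that also held proximal tubule RNA, and the part that such RNA plays in other classes was not tested.

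TAL-like nuclei, of the segment that reabsorbs salt after the loop's turn, had 46.2, 150 and 91.3 CPM in day 28 mice 1 to 3, 716 and 624 CPM in day 7 mice 1 and 2 and 8.82, 0, 0 and 0 CPM in controls 1 to 4. The rise of IRI over control was 5.57 on the log2 scale (SE 0.49, adjusted p = 3.12e-07 by edgeR over 7784 genes, of which 12.4% were higher), and all control UMIs, 7 in number, came from control 1. With the barcode set as a term the rise was 4.29 (adjusted p = 0.0377). After thinning, the TAL-like share with Havcr1 was 1.92%, 4.42% and 6.10% in day 28 mice 1 to 3 and 38.9% and 32.0% in day 7 mice 1 and 2, and the endothelium-like share was 6.67%, 8.33% and 2.50% at day 28 and 31.2% and 40.5% at day 7, at unthinned medians of 1838.5 and 2274 UMIs in TAL-like and 1133.5 and 1706 UMIs in endothelium-like nuclei. The mice of both classes overlapped at each time, and the endothelium-like class is itself the mix of clusters 23 and 33 given above. No expression by the thick limb is read from these shares. TAL-like cluster 24 had 243 CPM of Havcr1 at day 28 and 767 CPM at day 7, with proximal tubule markers at 58.7% and 61.2% of their PT-like level. Cluster 19 had 4.61 CPM at day 28 and 222 CPM at day 7 with those markers at 4.24% and 14.5%, and cluster 36 had 19.9 and 145 CPM with 4.63% and 16.1%. The TAL-like class was mostly cluster 24 at day 7 and clusters 19 and 36 at day 28, and control TAL-like nuclei were mostly in clusters 19, 27 and 28.

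**Figure D4:**
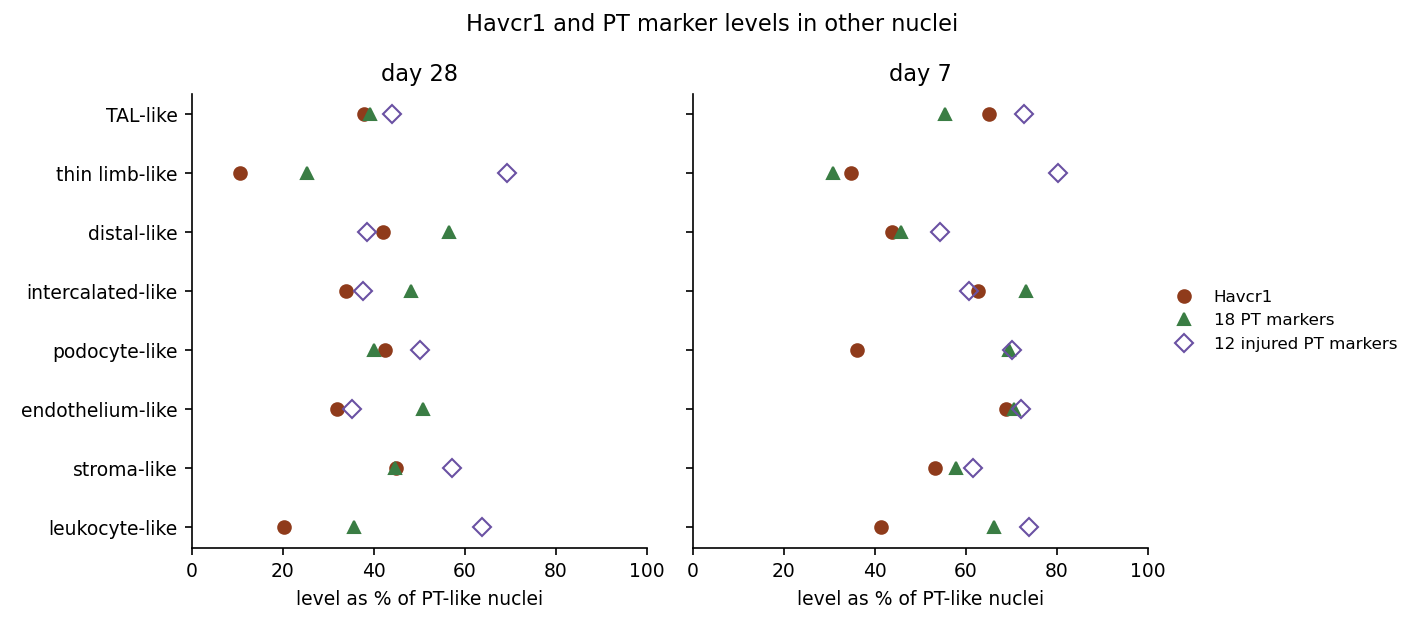
Level of Havcr1 (dots), of 18 proximal tubule markers (triangles) and of 12 injured proximal tubule markers (diamonds) in nuclei of other classes. Each is given as % of its own level in PT-like nuclei of the same time, with UMIs summed over mice. In TAL-like nuclei Havcr1 reaches 37.7% at day 28 and 65.1% at day 7, beside 39.0% and 55.6% for the proximal tubule markers.

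Which genes go with Havcr1 was asked nucleus by nucleus among 10546 thinned PT-like nuclei of the IRI mice. Pearson's r between log counts was taken within each mouse and averaged over the 5 mice for 3613 genes with a UMI in at least 5% of the nuclei. These values are a description with no p, since the nuclei of a mouse share a library. At this depth they are small: 50 genes reached a mean r of 0.1 and 58 reached -0.1. Runx1, the gene of a transcription factor active in injured tubule, was highest, with r of 0.31, 0.13 and 0.17 in day 28 mice 1 to 3 and 0.22 and 0.23 in day 7 mice 1 and 2 (mean 0.21). Next came Sytl2, which acts in vesicle transport (mean 0.20), Itgav, the integrin αV subunit (0.18), Cd44 (0.18), the transcription factor gene Creb5 (0.18), the scaffold gene Akap12 (0.17) and the endoplasmic reticulum gene Rtn4 (0.17). The 15 highest were completed by Actn1 and Myh9 of the actin cytoskeleton, the ferroxidase gene Cp, the cytokine gene Il34, the growth factor genes Nrg1 and Pdgfd, Nfkb1 and the autophagy gene Vmp1, with means of 0.15 to 0.17. Spp1 had a mean of 0.13 and ranked 24, and Vcam1 had 0.09 and ranked 59.

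At the other end were genes of the working proximal tubule. Dab2, an adaptor of endocytosis, was lowest, with r of -0.27, -0.15 and -0.12 at day 28 and -0.28 and -0.28 at day 7 (mean -0.22). It was followed by Slc34a1, the phosphate transporter (mean -0.20), Lrp2, the endocytic receptor megalin (-0.20), Fut9 (-0.19), Acsm2 (-0.19), Pde4d (-0.17), Snx29 (-0.17), Slc22a30 (-0.15), Tns1 (-0.14) and Gk (-0.14). The 15 highest and 10 lowest genes were taken from the 1237 with the same sign of r in each of the 5 mice.

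The level of both ends was read across the Havcr1 count of a nucleus. Slc34a1 in day 28 mouse 2 had 545, 111, 145 and 129 CPM in thinned nuclei with 0, 1, 2 and 3 or more Havcr1 UMIs, and in day 7 mouse 1 it had 953, 321, 176 and 85.2 CPM. Runx1 had 178, 295, 458 and 529 CPM in the same order in day 28 mouse 2 and 211, 376, 495 and 676 CPM in day 7 mouse 1, the mice with the most PT-like nuclei of their time. The lowest bin of Runx1 and the highest of Slc34a1 was that of nuclei with 0 Havcr1 UMIs in each of the 5 mice. Both genes had been picked for their r in these same nuclei, with the same sign in each mouse. The bins therefore describe that r and are not a separate test.

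A test over mice set summed thinned counts of Havcr1-positive PT-like nuclei (216, 598 and 132 nuclei in day 28 mice 1 to 3, 1404 and 1264 in day 7 mice 1 and 2) against Havcr1-negative ones (815, 2669 and 915 at day 28, 1249 and 1284 at day 7), with the mouse as a block and Havcr1 left out. Of 9279 genes, 733 (7.90%) were higher and 802 (8.64%) lower in positive nuclei by edgeR. Of these, 506 and 652 moved in their direction in each of the 5 mice. In the injured-scored clusters alone, 480 of the higher and 511 of the lower genes were called again. Counts by DESeq2 were 358 higher and 446 lower. Before thinning, positive nuclei had medians of 1411, 3152 and 4714 UMIs at day 28 and 4082 and 2238 UMIs at day 7, against 1378, 2896, 4429, 3641 and 2154 UMIs in negative nuclei, so they were somewhat deeper in each mouse. The part of this in the result was not tested beyond the thinning.

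Among the 12 largest rises with a mean of 50 CPM or more in either state, Runx1 had 700, 380 and 406 CPM in positive nuclei of day 28 mice 1 to 3 and 475 and 360 CPM in those of day 7 mice 1 and 2, against 183, 188, 156, 207 and 140 CPM in the negative nuclei of the same mice. The lowest positive value lay above the highest negative one (log2 rise 1.32, SE 0.08, adjusted p = 4.65e-21). Cxcl1, a neutrophil chemokine gene, had 957, 185 and 172 CPM in positive nuclei at day 28 and 128 and 103 CPM at day 7, against 286, 86.1, 89.9, 68.9 and 41.6 CPM in negative nuclei (log2 rise 1.28, SE 0.10, adjusted p = 4.74e-16). Day 28 mouse 1 was the highest for Cxcl1 in both states. The heat shock gene Hspb1 rose by 1.38, the chemokine gene Cxcl2 by 1.32, the heparan sulfate enzyme gene Hs3st5 by 1.29, the NF-κB inhibitor gene Tnfaip3 by 1.27, Akap12 by 1.23, the TGF-β binding protein gene Ltbp1 by 1.23, the plasminogen activator gene Plat by 1.17, Fhl2 by 1.13, Frmd6 by 1.13 and Gm14005 by 1.11, with adjusted p of 9.53e-08 or less in edgeR and a rise in each of the 5 mice.

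Among the 12 largest falls, Slc34a1 had 309, 128 and 289 CPM in positive nuclei of day 28 mice 1 to 3 and 217 and 262 CPM in those of day 7 mice 1 and 2, against 1557, 574, 1186, 932 and 818 CPM in negative nuclei (log2 change -1.997, SE 0.08, adjusted p = 3.10e-31). The highest positive value lay below the lowest negative one. The carboxylesterase gene Ces1f changed by -2.24, the clock output factor gene Hlf by -2.13, the creatine synthesis gene Gatm by -2.13, the lactate transporter gene Slc5a12 by -2.09, Hnf4aos by -1.93, the transporter genes Slc22a30 by -1.89, Slc16a14 by -1.88, Slc5a2 (glucose, SGLT2) by -1.86 and Slc22a28 by -1.74, AI314278 by -1.78 and the glycine enzyme gene Gldc by -1.77. Each fell in all 5 mice.

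Gene lists were read against the shares called over all genes in this split, 7.90% higher and 8.64% lower, and a median log2 difference of 0.01 over all 9279 genes. Of 15 injury transcription factors tested, 14 rose and 0 fell, with a median of 0.80; Runx1, Creb5, Nfkb1 and Fosl2 (1.11) had the smallest p, and Jun was the member at 0.19 (adjusted p = 0.397). Of 17 injury markers besides Havcr1, 11 rose and 0 fell (median 0.65), among them Cd44 by 1.05, the annexin genes Anxa3 by 0.99 and Anxa2 by 0.95, and Spp1 by 0.65. Krt20 rose by 0.99 (SE 0.22, adjusted p = 0.000387) and was higher in positive nuclei of 4 of 5 mice. Sox9 rose by 0.83 (SE 0.14, adjusted p = 1.68e-06). Of 19 failed-repair genes 18 rose and 0 fell (median 0.54), Cp by 0.69, Il34 by 0.58 and Vcam1 by 0.66, and Tgfb2 stood at 0.35 (adjusted p = 0.118). Vcam1, Icam1, Nfkb1 and Relb each stand in a pair of these lists.

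Of 22 proximal tubule transport genes 18 fell and 0 rose (median -1.25), with Lrp2 at 314, 354 and 234 CPM in positive nuclei at day 28 and 426 and 422 CPM at day 7, against 1054, 792, 571, 1103 and 868 CPM in negative nuclei (log2 change -1.27). The members with no call were Slc4a4 at 0.01, Slc13a1 at 0.11, Amn at -0.25 and Slc5a1 at 0.36. Of 19 proximal tubule metabolism genes 18 fell and 0 rose (median -1.11), among them the gluconeogenesis gene Fbp1 by 1.73 on the log2 scale, the tyrosine breakdown gene Hgd by 1.63 and Acsm2 by 1.16. Of 5 cell cycle genes tested by edgeR 0 were called in either direction and 1 had an unadjusted p under 0.05, with values of -0.22 to 0.56.

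The next lists hold genes of the tasks KIM-1 is known for. Of 15 phosphatidylserine receptors, bridging molecules and engulfment genes, 4 rose and 1 fell (median 0.07). Itgav rose by 0.75 (SE 0.06, adjusted p = 2.84e-15), the receptor kinase gene Axl by 1.13 (SE 0.19, adjusted p = 4.84e-06, higher in 4 of 5 mice), Dock1, which couples engulfment to the cytoskeleton, by 0.24 (adjusted p = 0.0123), and Timd2 by 0.35 (adjusted p = 0.0233, higher in 3 and lower in 2 mice). Mertk, the gene of a receptor kinase of the same family as Axl, had 25.7, 33.8 and 23.4 CPM in positive nuclei at day 28 and 24.4 and 24.9 CPM at day 7, against 95.7, 62.8, 78.7, 72.8 and 85.5 CPM in negative nuclei, and fell by 1.54 on the log2 scale (SE 0.16, adjusted p = 6.88e-12). The states of Mertk did not overlap. Of 19 phagosome, LC3 and lysosome genes 0 were called in either direction by edgeR and 2 had an unadjusted p under 0.05 (median -0.03), with values of -0.33 to 0.35.

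Of 6 scavenger receptor and fatty acid uptake genes, Cd36 fell by 0.68 and Slc27a2 by 0.44, and 0 rose. Of 8 genes of KIM-1 shedding and signalling, the metalloproteinase inhibitor gene Timp3 fell by 0.56 (adjusted p = 5.85e-08) and Gna12, a G protein that KIM-1 binds, by 0.41 (adjusted p = 0.00544), and 0 rose. The sheddase genes Adam10, at 0.23 (adjusted p = 0.0720), and Adam17, at -0.13 (adjusted p = 0.634), had no call. Of 9 STAT3 and gp130 signalling genes the oncostatin receptor gene Osmr rose by 0.97 (adjusted p = 3.29e-08), Stat3 rose by 0.50 (adjusted p = 1.17e-06) and Stat5b fell by 0.27 (adjusted p = 0.0293). All these adjusted p are edgeR's over 9279 genes.

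**Figure D5:**
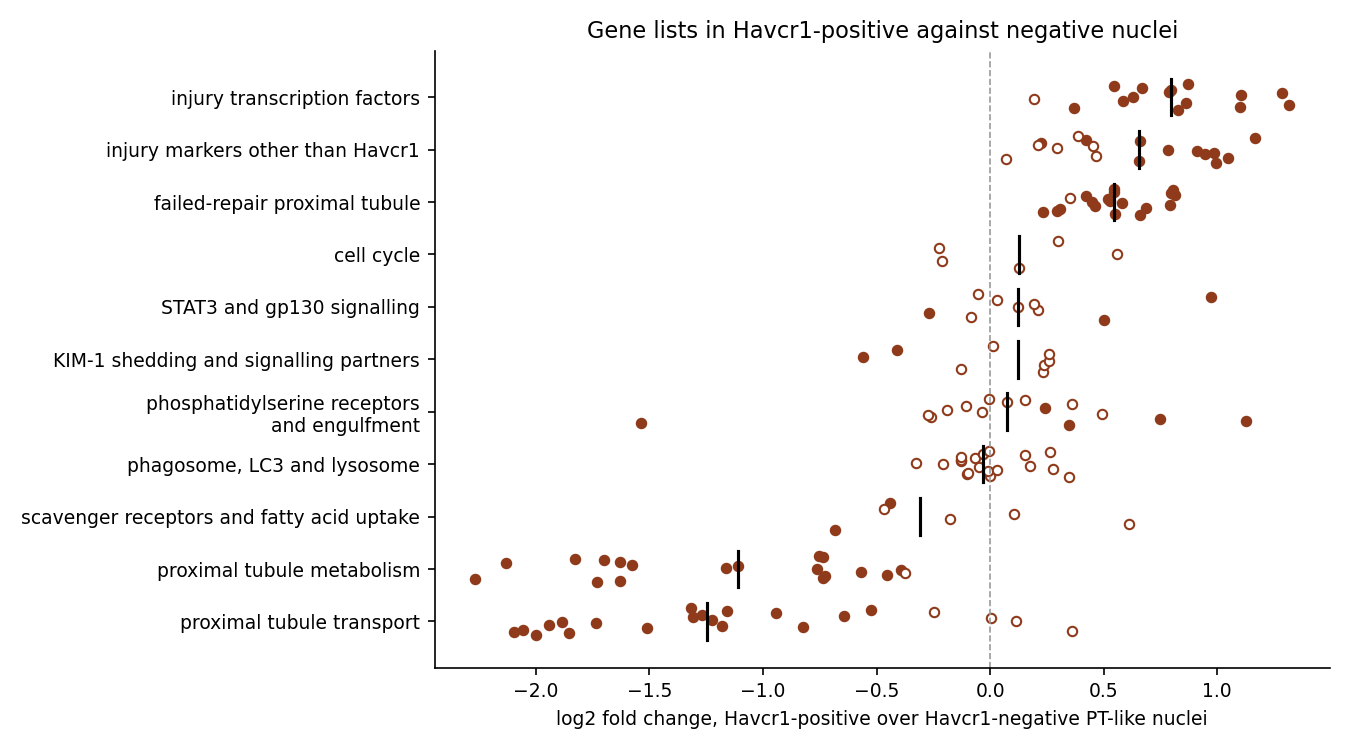
log2 fold change of Havcr1-positive over Havcr1-negative PT-like nuclei of the 5 IRI mice for each tested gene of 11 lists, with filled dots for an edgeR adjusted p under 0.05, open dots for the others and black bars for list medians. Medians run from 0.80 for injury transcription factors to -1.25 for proximal tubule transport, and lists of phagocytosis and of KIM-1 partners centre near 0.

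The same lists were compared between groups in all PT-like nuclei, where 24.1% of all genes were higher and 21.2% lower at day 28 and 26.3% higher and 24.8% lower at day 7 against control. At day 28 against control 9 of 21 phosphatidylserine and engulfment genes rose and 2 fell, and at day 7 against control 10 rose and 3 fell; the comparisons share the controls. Axl had 8.93, 16.2 and 25.6 CPM at day 28, 35.9 and 33.7 CPM at day 7 and 0.447 to 1.89 CPM in controls (log2 rise 4.12 at day 28 and 5.13 at day 7). Mertk had 63.0, 54.7 and 64.2 CPM at day 28, 42.9 and 49.4 CPM at day 7 and 126 to 246 CPM in controls (log2 change -1.62 and -2.02). Neither gene overlapped between IRI and control. Between day 28 and day 7, Mfge8, which bridges dying cells to integrins, was the member called, a fall of 1.53 on the log2 scale (adjusted p = 0.0413), with 6.45, 6.68 and 3.74 CPM at day 28 against 14.0 and 18.4 CPM at day 7.

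Against these same shares of all genes, of 9 scavenger receptor and uptake genes 1 rose and 4 fell at each time against control: Scarb1 rose by 3.48 at day 28 and 3.95 at day 7, and Cd36 fell by 2.26 at day 28 and 1.41 at day 7. Of 11 shedding and signalling partners 4 rose and 4 fell at day 28 and 4 rose and 3 fell at day 7. Of 12 STAT3 and gp130 genes 7 rose and 1 fell at day 28 and 6 rose and 1 fell at day 7, with Osmr at 43.7, 52.5 and 69.8 CPM at day 28, 73.6 and 58.1 CPM at day 7 and 0 to 1.26 CPM in controls. Between day 28 and day 7 edgeR called 0 members of these 3 lists, with 2, 0 and 1 at an unadjusted p under 0.05. Of 19 phagosome and lysosome genes 3 rose and 6 fell at day 28 and 2 rose and 4 fell at day 7, and Rab7, which directs late endosomes, fell between the times. Of 17 injury transcription factors 17 rose at day 28 and 15 at day 7, and all 19 failed-repair genes rose at both times. Of 24 proximal tubule transport genes 21 fell at day 28 and 20 at day 7, and of 21 metabolism genes 20 fell at each time; between the times 0 members of either list were called, with 3 and 5 at an unadjusted p under 0.05.

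Vcam1 and Havcr1 were also read together in single nuclei. At this depth a nucleus with 0 UMIs of a gene may still hold its RNA, so shares with 1 gene and not the other follow in part from sampling. Among thinned PT-like nuclei, Vcam1 was found in 43.5%, 26.3% and 42.4% of Havcr1-positive nuclei of day 28 mice 1 to 3, against 26.4%, 20.9% and 31.5% of the Havcr1-negative ones, and in 19.2% and 19.0% of positive nuclei of day 7 mice 1 and 2, against 14.7% and 11.99% of negative ones. Nuclei with Vcam1 and without Havcr1 made up 20.9%, 17.0% and 27.5% of PT-like nuclei at day 28 and 6.90% and 6.04% at day 7. Nuclei with Havcr1 and without Vcam1 made up 11.8%, 13.5% and 7.26% at day 28 and 42.8% and 40.2% at day 7. Vcam1 was more frequent in Havcr1-positive nuclei in each of the 5 mice. In the split, Vcam1 had 1436, 540 and 953 CPM in positive nuclei at day 28 and 284 and 270 CPM at day 7, against 814, 378, 661, 195 and 143 CPM in negative nuclei (log2 rise 0.66, SE 0.07, adjusted p = 3.15e-11).

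Whether the split itself changed with time was tested as an interaction. By edgeR 2 of 9279 genes (0.0216%) were called, Cadps2, which acts in vesicle release, and Csmd1, and 468 had an unadjusted p under 0.05. DESeq2 called 0, with 64 at an unadjusted p under 0.05. In TAL-like nuclei the day 7 libraries alone had enough nuclei in both states, and 19 of 2019 genes (0.941%) were higher and 21 (1.04%) lower in positive nuclei. Of the 19 higher genes, 17 were also called higher in PT-like nuclei, Runx1, Itgav, Akap12, Creb5 and Cd44 among them, where 16.9% of the 1990 genes tested in both classes were called higher. At day 7 TAL-like cluster 24, with 767 CPM of Havcr1, held proximal tubule markers at 61.2% and injured ones at 80.1% of their PT-like level. Clusters 19 and 36, with 222 and 145 CPM, held the former at 14.5% and 16.1% and the latter at 24.4% and 42.3%. The part of proximal tubule RNA in these 17 genes was not tested. The number of higher genes in TAL-like nuclei was 1 when thinned to 500 UMIs, and before thinning positive TAL-like nuclei were deeper, with medians of 4083 and 3260.5 UMIs in day 7 mice 1 and 2 against 2974.5 and 2620 UMIs in negative ones; the part of depth was not tested. Of the 21 lower genes, 5 were called lower and 2 higher in PT-like nuclei, where 14.4% of the 1990 genes were called lower, and the thick limb genes Slc12a1, at -0.74, and Umod, at -0.83, were among those without a call there (adjusted p = 0.521 and 0.559 in PT-like nuclei by edgeR).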

How the data were processed

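Single-nucleus RNA was measured with 10x Chromium 3' libraries in 9 mice. The deposited tables hold raw UMI counts per gene and nucleus, made by the authors with Cell Ranger and STAR on mm10 and handled in Seurat, per the submitters' processing notes; versions, annotation and strand use: not given in the sources used here. Doublets were gated out at the sorter, per the labels' protocols, and no doublet caller was run here. The control and IRI tables list 17455 and 19342 genes, and the 16939 genes in both were used, with every nucleus kept.

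Nuclei were clustered without Havcr1 (Leiden, resolution 2, seed 0, with 2000 variable genes, 30 principal components and 20 neighbours), and clusters were called "-like" by marker scores of at least 0.5 (1.0 outside the proximal tubule) with 3 markers raised. These score thresholds were set after the scores had been seen. UMI counts were summed per mouse and class and tested with edgeR 4.0.16 (TMM, filterByExpr, quasi-likelihood test, Benjamini-Hochberg adjustment, threshold 0.05). DESeq2 1.42.0 was an alternative. Shares used nuclei thinned to 1000 UMIs and exact permutation tests over mice. Intervals are exact 95% Poisson or binomial intervals for counting error only, and 3 UMIs set the floor. The positive and negative sums kept the mouse as a block because both come from the same animal, and the edgeR steps were tested on simulated data. Genes were named by rank (15 highest and 10 lowest r; 12 largest rises and 12 largest falls with the same direction in 5 mice), as the 4 list members of smallest p in each direction, and as a set of injury and transport genes always shown; list members without a call and the examples from comparisons between groups were added after their values had been seen. The gene, the lists and the rules were chosen with earlier results of these data known. Sequences and coordinates are from GRCm38 with GENCODE M21. Software was R 4.3.3 and Python 3.11.15.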

Additional observations from a re-analysis of the deposited data

Results flagged for a closer look

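Several control values outside PT-like nuclei stood apart from the other controls because 1 mouse held a few UMIs and the others 0 or nearly 0. TAL-like Havcr1 was at 8.82 CPM in control 1, from 7 UMIs, and at 0 in the other controls, and the thinned TAL-like share was 0.327% there, from 1 nucleus. Stroma-like nuclei of control 2 were at 15.8 CPM from 1 UMI, and thin limb-like nuclei of control 1 at 3.44 CPM from 1 UMI. Single thinned nuclei gave shares of 1.79% in distal-like and 3.85% in endothelium-like nuclei of control 2 and of 0.893% in thin limb-like nuclei of control 1. The usual rate of about 1 in 20 groups marked by chance does not hold here, since a group of 4 with a single value above 0 is always marked.

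The positive against negative difference changed between day 28 and day 7 for a pair of genes by the edgeR interaction test. Csmd1 averaged 20.5 CPM in Havcr1-positive and 91.7 CPM in Havcr1-negative nuclei at day 28, and 151 CPM in positive and 66.5 CPM in negative nuclei at day 7, an interaction of -3.21 on the log2 scale (SE 0.40, adjusted p = 9.00e-07). Of the 3 day 28 mice, mice 2 and 3 were lower in positive nuclei and mouse 1 was higher. Cadps2 averaged 308 CPM in positive and 315 CPM in negative nuclei at day 28, and 285 and 170 CPM at day 7, an interaction of -0.83 (SE 0.16, adjusted p = 0.0164).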

How the results depend on the processing

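Of the alternatives run on the main results, 106 kept direction and side of the threshold (or lay within 1.5 times the count), 22 moved, 6 lost their call and 0 reversed, and all 24 run on other genes kept theirs. Leaving out 1 mouse gave log2 rises of 6.93 to 7.64 at day 7 and 5.22 to 5.93 at day 28 against control, 5.24 to 9.63 in TAL-like sums (9.63 without control 1, when all controls are at 0, which is no bound), and -1.96 to -1.60 for day 28 against day 7, where the call ended without either day 7 mouse. The IRI against control share difference was 24.9 to 35.01 points; leaving out any 1 of the controls ended its call (exact permutation p = 0.0536); that of day 28 against day 7 was -35.8 to -31.6 points. Counts of genes in positive against negative nuclei were 472 (without day 7 mouse 1) to 699 higher and 591 to 806 lower, and 1 to 14 for the interaction (14 without day 28 mouse 2). Higher, lower and interaction counts were 286, 440 and 0 at 500 UMIs (1 higher gene in TAL-like nuclei), 1408, 1527 and 45 with no thinning, and 358, 446 and 0 with DESeq2. Injured-scored clusters alone gave 485 higher and 534 lower genes. The interaction count was also 37 at 2000 UMIs, 4 over all nuclei and 6 with no filter on low counts. The cause of these moves was not tested, apart from the smaller or larger counts that the thinning itself leaves.

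Replicate numbers do not pair the mice (same-numbered correlations -0.224 to 0.0181). A replicate block gave 7.06 at day 7, 5.61 at day 28, -1.45 for day 28 against day 7 (adjusted p = 0.0376 by edgeR) and 5.36 in TAL-like sums, and ended no call. With no replicate block, the positive against negative counts were 13 higher and 64 lower. Other alternatives for day 28 against day 7 gave -1.92 to -1.45 (edgeR or DESeq2 adjusted p of 0.000722 to 0.0376). The second clustering seed, the barcode sets alone and the injured-scored clusters were chosen after seeing the data. Leaving out a mouse in the TAL-like split was not run, since 1 library leaves no residual degrees of freedom. Control 4 kept 308 PT-like nuclei at 1000 UMIs, which limits its share.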
